A study of Sus scrofa with 15 samples.

Results

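Chondrocytes carrying integrin alpha 4 (ITGA4) on their surface were compared with chondrocytes lacking it, in articular cartilage of adult pig knees. The comparison set 6 ITGA4+ libraries against 6 ITGA4- libraries, 12 of the 15 libraries of the series. The members were chosen by the sort label of each library, and the 3 libraries of CD146+ synovial cells were not used. Cells had been released by enzymatic digestion and sorted on ITGA4 and on BMPR1B, a type 1 BMP receptor, into 4 populations. ITGA4+BMPR1B+ and ITGA4+BMPR1B- libraries formed the ITGA4+ group, and ITGA4-BMPR1B+ and ITGA4-BMPR1B- libraries the ITGA4- group. Each population was collected once from each of 3 pigs, numbered 2, 5 and 6, so that the groups shared animals and every library of one group had a partner of the same pig and the same BMPR1B status in the other. No genotype, treatment, breed, sex or age in years was given for the pigs beyond the adult stage, and no agent was named for any of them. The groups were defined by antibody staining of a surface protein on single-cell suspensions, and each library is the RNA of many cells.

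ITGA4 pairs with integrin beta 1 or beta 7 to form receptors for fibronectin and for VCAM1, and is best known from leukocytes. In articular cartilage, cells near the joint surface make lubricin (PRG4), cells below them make the aggrecan and type II collagen matrix under the transcription factor SOX9, and cells close to bone become hypertrophic and make type X collagen. Chondrocytes of adult cartilage rarely divide, and they draw most of their energy from glycolysis in a tissue without blood vessels. The study asked whether ITGA4 marks a chondrocyte subset with a transcriptome of its own.

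Values are reported on 2 scales. The deposited scale is the authors' signal, in which every library summed to 629194 or 629195, so that a value is a share of a fixed total that includes structural RNA. The messenger RNA scale keeps 24171 of 25322 rows. Left out were 1114 rows of structural and small RNA (ribosomal, small nuclear, small nucleolar and the like) and 37 mitochondrially encoded rows. Structural rows were recognised by symbol, so those without one would remain. Each library was then divided by its median ratio to the mean library and brought to a mean total of 1000000. Differences are log2(value + 1) of ITGA4+ minus ITGA4-, averaged over BMPR1B status, from limma with the pig as a block. A gene was called at an adjusted p under 0.05 over all genes tested. Since division by gene length is not described in the sources used here, no level was compared between genes. In sorted bulk samples, fewer cells that make a transcript and less of it per cell cannot be told apart.

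The table holds no read depth, and the read totals listed by the study were not used here, so depth is not given. Rows of messenger RNA held 2.03% to 4.17% of the signal in the 4 libraries of pig 2 and 11.8% to 22.1% in the 8 libraries of pigs 5 and 6, and the first principal component (22.8% of the variance) set pig 2 apart. Transcripts of ITGA4 itself were close to the lower limit of the table, at 0.0537 to 1.33 on the messenger RNA scale in ITGA4+ and 0.10 to 0.827 in ITGA4- libraries, and were higher in ITGA4+ in 5 of 6 pairs (log2 0.22, exact permutation p = 0.09375). BMPR1B stood at 0 to 0.145. The sort labels were therefore not resolved by the transcripts of the sorted proteins. The defining genes of chondrocytes were present in every library, ACAN at 1365 or above and COL2A1 at 8643 or above. The ITGA4+BMPR1B- library of pig 2 stood apart, with PTPRC (CD45) at 7.55 against 0 to 0.489 in the other 11 libraries, and with S100A8 at 77.4, C1QA at 42.5, CD68 at 101, NKG7 at 36.0 and KDR at 23.0. The summed pan-leukocyte markers spanned 0.420 to 28.5 in ITGA4+ and 0.209 to 5.50 in ITGA4- libraries. CD2, CD3D, CD3E, CD3G, CD8A, IL7R and MS4A1 of lymphocytes were under 1 in all 12 libraries. CD79A, of the same list, was at 25.3 to 77.6 in ITGA4+ and at 4.35 to 107 in ITGA4- libraries. It was the 1 lymphocyte row tested, with a log2 difference of 0.79 that was not called, and it rose as deposited. The ITGA4+BMPR1B- library of pig 5 lay apart on the third component (14.1%) and held macrophage transcripts at lower levels, with CD68 at 31.4, C1QC at 11.6 and TYROBP at 4.48 against at most 6.92, 2.62 and 0.759 in ITGA4- libraries. Endothelial transcripts were also seen in the ITGA4+BMPR1B+ library of pig 2, with KDR at 9.83, ESAM at 5.36 and SOX17 at 6.47 against at most 2.75, 1.76 and 3.06 in ITGA4- libraries. The mean was higher in ITGA4+ for 11 of 12 endothelial, 11 of 13 macrophage and 6 of 6 pan-leukocyte rows, and summed endothelial markers spanned 19.2 to 142 in ITGA4+ and 18.8 to 53.9 in ITGA4- libraries. The part of these cells in the results was not tested. Values without each of these libraries are given beside the main gene groups.

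The composition of the signal was shifted the same way between ITGA4+ and ITGA4- cells in all 3 pigs. Structural and small RNA made up 61.3 ± 10.8% of the signal in ITGA4+ libraries (SD, n = 6, range 43.9% to 77.5%) and 78.6 ± 13.2% in ITGA4- libraries (68.7% to 96.2%). Mitochondrially encoded RNA made up 24.6 ± 7.80% (18.4% to 35.1%) in ITGA4+ and 10.9 ± 7.09% (1.80% to 16.8%) in ITGA4-. Messenger RNA rows made up 14.1 ± 8.05% (4.03% to 22.1%) and 10.53 ± 6.91% (2.03% to 19.2%). Thus mitochondrial shares did not overlap between the groups, whereas structural and messenger shares did, with the libraries of pig 2 at the low end for messenger RNA in both groups. Within pairs, the structural share was lower in ITGA4+ in 6 of 6, and the mitochondrial and messenger shares were higher in 6 of 6. Each of these differences had an exact permutation p of 0.03125 over the 6 pairs, the smallest they can give, and 0.0703 after adjustment over 9 measures, which misses the threshold. The 6 pairs came from 3 pigs, so they are not 6 independent animals.

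**Figure D1:**
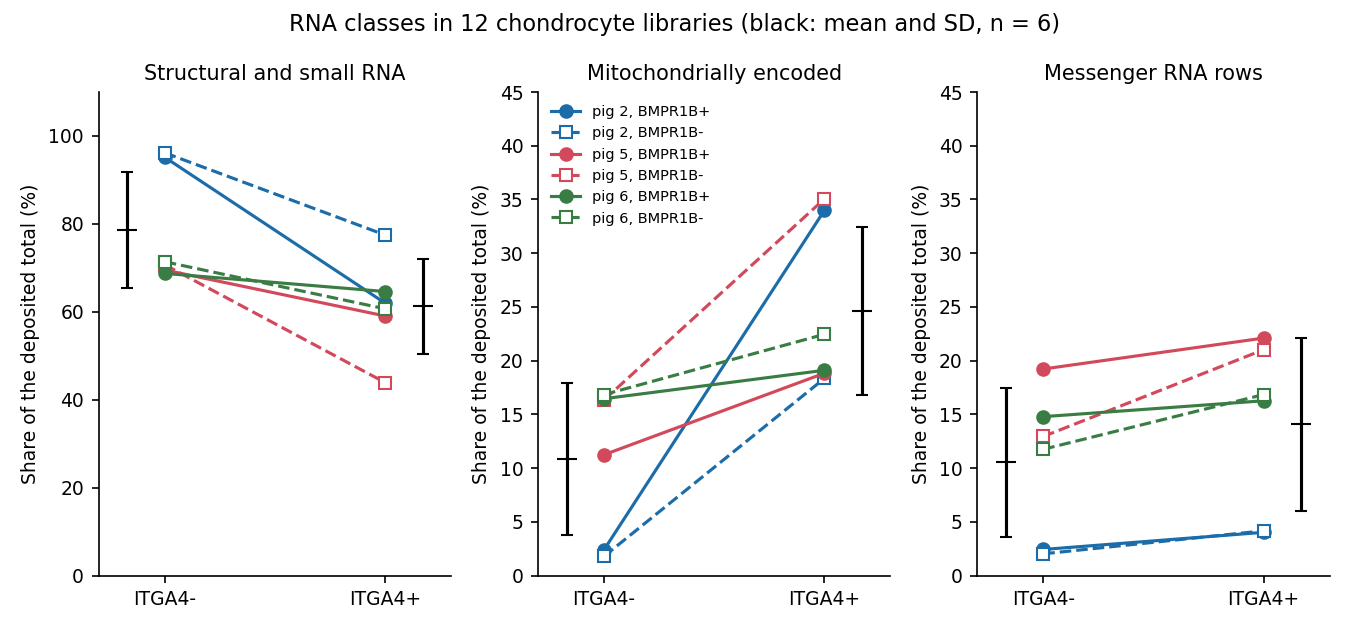
Share of the deposited signal (%) held by structural and small RNA, mitochondrially encoded RNA and messenger RNA rows in 12 libraries. Lines join the ITGA4- and ITGA4+ library of 1 pig and BMPR1B status, and black bars give the mean and SD (n = 6). The 6 mitochondrial values of ITGA4+ cells, 18.4% to 35.1%, all lie above the 6 of ITGA4- cells, 1.80% to 16.8%.

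The size of the mitochondrial difference depended on the pig. In pig 2 the ratio of mitochondrial to messenger signal was 8.43 for ITGA4+BMPR1B+ and 4.40 for ITGA4+BMPR1B- cells against 0.988 for ITGA4-BMPR1B+ cells and 0.886 for ITGA4-BMPR1B- cells. Over all pairs this ratio was higher by 1.05 on the log2 scale in ITGA4+, in 5 of 6 pairs (exact permutation p = 0.09375). Of the 37 mitochondrially encoded rows, placed on the messenger RNA scale, 36 lay above 0 with a median of 0.89, and the medians within pigs 2, 5 and 6 were 2.53, 0.14 and -0.02. Without pig 2 the median was 0.07 and 20 rows lay above 0. The ratio of mitochondrial to messenger signal was higher by 0.23 on the log2 scale without pig 2. Most of the excess over messenger RNA therefore came from pig 2, while the higher share of the whole signal was present in each pig (13.8 percentage points, and 8.64 without pig 2).

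On the deposited scale, most genes were higher in ITGA4+ cells. Among the 6873 rows that exceeded 1 in 3 or more libraries, 3474 rose in ITGA4+ cells (50.5%) and 16 fell (0.233%). The median difference of all rows was 0.32 on the log2 scale, 92.7% of rows lay above 0 and 49.4% were higher in 6 of 6 pairs. The median was above 0 in pig 2 (0.24), pig 5 (0.45) and pig 6 (0.26), and in BMPR1B+ (0.27) as in BMPR1B- cells (0.37). Among messenger RNA rows 3419 of 6411 rose and 6 fell, among mitochondrial rows 18 of 37 rose, and among structural rows 37 of 425 rose and 10 fell. These calls depended on the fit. The count was 7 without the pig block, 0 when the libraries of each animal were first averaged, and 0, 2 and 0 without pig 2, 5 and 6.

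The rows that fell as deposited were mainly structural RNA. A row of 5_8S_rRNA, a component of the large ribosomal subunit, went from 438248 ± 101299 to 311816 ± 57349 (log2 -0.48, limma adjusted p = 0.0481), lower in 6 of 6 pairs. SNORD29, a guide RNA of ribosomal RNA methylation, went from 108 to 21.8 (log2 -3.24, adjusted p = 0.0188), lower in 6 of 6 pairs. SNORD19, SNORD62, SNORD64, SNORD39, both rows of SNORD56 and both rows of U6 fell as well, and the U6 rows were listed at 0 in the ITGA4+ libraries. The SNORD56 rows held identical values and cannot be told apart. HRAS, a small GTPase of growth factor signalling, was the 1 named messenger gene to fall (log2 -0.42, adjusted p = 0.0415, lower in 4 of 6 pairs). On the messenger RNA scale, 215 of 288 small nucleolar and Cajal body RNA rows lay below 0, with a median of -0.75 and medians of 0.24, -1.95 and -0.55 in pigs 2, 5 and 6. The median was -1.01 without the ITGA4+BMPR1B- library of pig 2, -0.38 without that of pig 5 and -1.32 without pig 2.

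**Figure D2:**
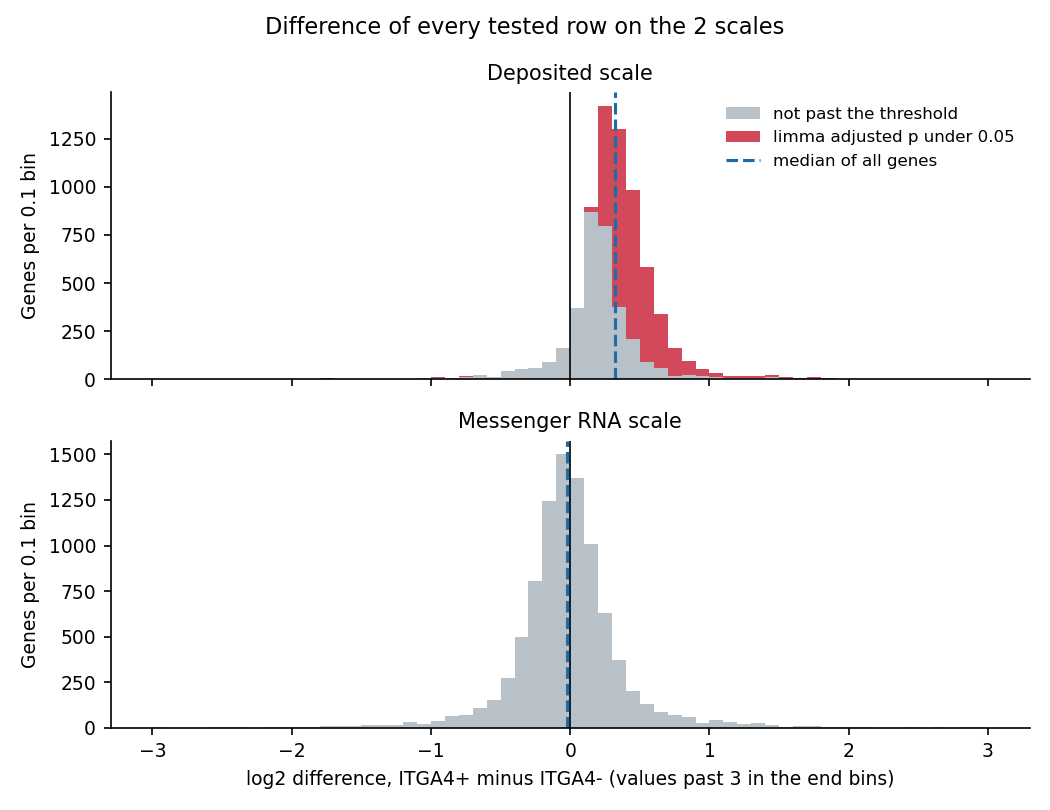
Histograms of the log2 difference (ITGA4+ minus ITGA4-) of every tested row on the deposited scale (6873 rows) and the messenger RNA scale (9071 rows), in bins of 0.1, with rows past the threshold in red and the median dashed. The deposited distribution is centred on 0.32 with 3474 rises, and the messenger RNA distribution on -0.02 with no row past the threshold. The centre of the latter follows from its scaling.

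Rescaling to messenger RNA removed the common shift, as division of each library by its median ratio does by construction. The median of 9071 genes above 5 in at least 3 libraries was -0.02, with 45.8% above 0. No gene reached an adjusted p under 0.05 (limma, smallest 0.110), and 1086 had an unadjusted p under 0.05, of which 454 were higher (5.00%) and 632 lower (6.97%) in ITGA4+ cells. The median standard error of a difference was 0.16 on the log2 scale. Of the 3419 messenger genes that rose as deposited, 2179 were above 0 on the messenger RNA scale and 1240 below, with a median of 0.06. Across genes, which are not independent replicates, the differences of the 3 pigs were weakly correlated (Pearson r of 0.13, 0.08 and 0.21 between pigs 2 and 5, 2 and 6, and 5 and 6). Genes with 6 ITGA4+ values apart from all 6 ITGA4- values numbered 28 (0.309%), 8 higher (0.0882%) and 20 lower (0.220%). Because no gene passed the test on this scale, the values that follow describe these libraries.

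UBE2C, RGS2, BMP4 and MATN1 had the marker role in the description of the comparison, a choice made with these values known. UBE2C (ENSSSCG00000007423), the ubiquitin-conjugating enzyme of the anaphase-promoting complex, ranged from 8.65 to 62.3 with a median of 13.7 in ITGA4+ libraries and from 0.747 to 27.4 with a median of 2.97 in ITGA4- libraries. It was higher in ITGA4+ in 6 of 6 pairs, while the groups overlapped through the ITGA4-BMPR1B+ library of pig 6. The highest values, 43.1 and 62.3, were those of ITGA4+BMPR1B+ cells of pigs 5 and 6, and ITGA4+BMPR1B- libraries stood at 8.65 to 14.9. The log2 difference was 1.93 (SE 0.30, 95% interval 1.24 to 2.61, limma adjusted p = 0.130), and 2.10, 2.09 and 1.59 in pigs 2, 5 and 6. As deposited UBE2C rose by 1.01 (adjusted p = 0.0272). On the messenger RNA scale UBE2C exceeded 5 in fewer than 3 ITGA4- libraries. It therefore entered the test through the ITGA4+ libraries.

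RGS2 (ENSSSCG00000010806), which speeds the shut-off of G protein signalling, ranged from 5.99 to 57.6 (median 22.3) in ITGA4+ and from 2.20 to 26.0 (median 9.88) in ITGA4- libraries. The highest values, 29.3, 48.9 and 57.6, were those of ITGA4+BMPR1B- cells of pigs 2, 5 and 6, and the groups overlapped. The log2 difference was 1.11 (SE 0.16, interval 0.76 to 1.47, limma adjusted p = 0.130), a fold of 2.17, with 6 of 6 pairs higher. It was 1.61 in BMPR1B- and 0.62 in BMPR1B+ cells, and the interaction, -0.98, had an unadjusted limma p of 0.0125 and did not pass adjustment. As deposited RGS2 rose by 0.82 (adjusted p = 0.0178).

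BMP4 (ENSSSCG00000005045), a secreted ligand of BMP receptors, ranged from 16.6 to 37.0 (median 31.2) in ITGA4+ and from 7.97 to 22.8 (median 12.6) in ITGA4- libraries. All 6 pairs were higher in ITGA4+, and only the ITGA4- library of BMPR1B- cells of pig 6 reached into the range of the ITGA4+ libraries. The log2 difference was 1.01 (SE 0.15, interval 0.67 to 1.35, limma adjusted p = 0.130), at 1.16 in BMPR1B+ and 0.86 in BMPR1B- cells. As deposited BMP4 rose by 0.83 (adjusted p = 0.0118). Genes of BMP signalling as a list had no common direction. Of 22 tested, BMP4 included, 11 lay above and 11 below 0, with a median of 0.01. At an unadjusted p under 0.05, 2 were higher and 1 lower (5.00% and 6.97% of all genes). GDF5, a BMP-family ligand of joint formation, ranged from 18.2 to 166 (median 90.8) in ITGA4+ and from 42.3 to 221 (median 147) in ITGA4-, overlapping but lower in 6 of 6 pairs (log2 -0.85, adjusted p = 0.284).

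MATN1 (ENSSSCG00000022554), a matrilin that links collagen fibrils and proteoglycans in cartilage, went the other way. It ranged from 1.67 to 57.7 (median 29.3) in ITGA4+ and from 4.202 to 237 (median 57.2) in ITGA4- libraries. The ranges overlapped widely because pig 2 was low and pig 5 high in both groups, whereas all 6 pairs were lower in ITGA4+. The log2 difference was -1.27 (SE 0.20, interval -1.73 to -0.81, limma adjusted p = 0.130). Without the ITGA4+BMPR1B+ library of pig 6 it was -1.48, with an adjusted p of 0.0253. As deposited MATN1 stood at -0.45, with 5 of 6 pairs lower and no call (adjusted p = 0.0918).

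**Figure D3:**
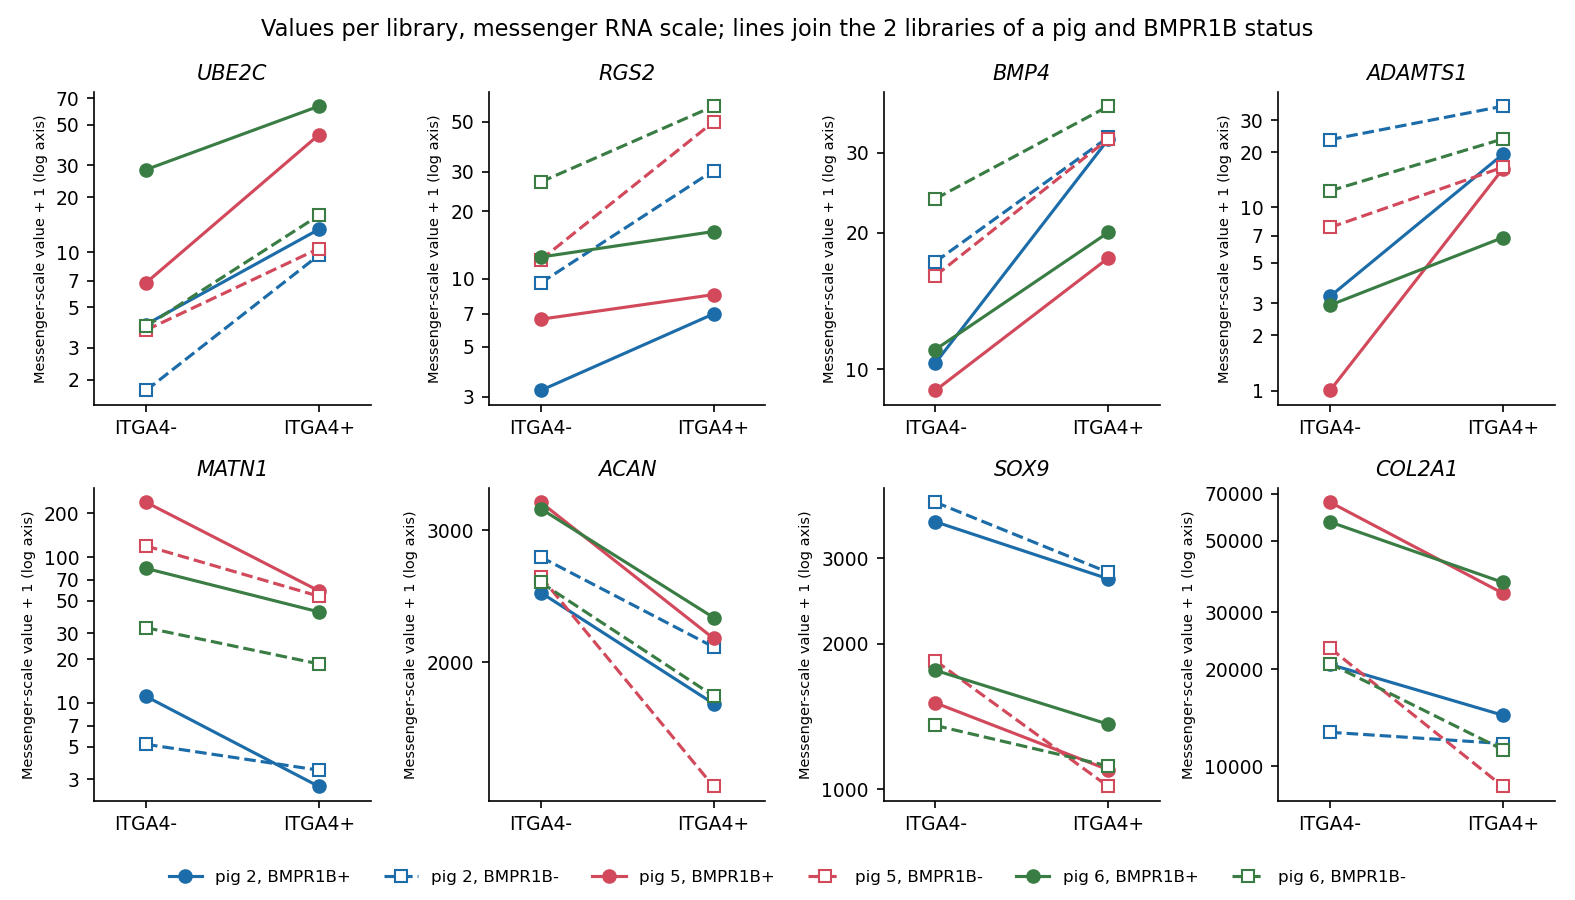
Values of 8 genes in each library on the messenger RNA scale (value + 1, log axis), with lines joining the ITGA4- and ITGA4+ library of 1 pig and BMPR1B status. ADAMTS1 is the row with the smaller p of its 2 rows. In every panel all 6 lines run the same way, upward for UBE2C, RGS2, BMP4 and ADAMTS1 and downward for MATN1, ACAN, SOX9 and COL2A1, and only the ACAN values of the groups do not overlap.

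Cell cycle genes leaned toward ITGA4+ cells. The list of the G2 and M phases held 39 rows, of which 18 passed the filter on low values. All 18 of these lay above 0, with a median of 0.72 against -0.02 for all genes, 10 were higher at an unadjusted p under 0.05 (5.00% of all genes) and 8 were higher in 6 of 6 pairs (3.51%). Of the 18 rows 8, UBE2C, TOP2A and MKI67 among them, exceeded 5 in fewer than 3 ITGA4- libraries and so entered through the ITGA4+ libraries. These counts and those of the lists that follow therefore describe the rows that passed and do not test a list. On the deposited scale 9 of 11 tested members rose, where 50.5% of all rows did. The median was 0.74, 1.16 and 0.49 in pigs 2, 5 and 6, and 1.01 in BMPR1B+ and 0.50 in BMPR1B- cells. It was 0.62 without the ITGA4+BMPR1B- library of pig 2, 0.89 without that of pig 5 and 0.79 without pig 2.

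Among its members, TOP2A, the topoisomerase that untangles chromosomes before division, ranged from 4.27 to 48.3 (median 7.12) in ITGA4+ and from 0.475 to 17.5 (median 2.85) in ITGA4- libraries. The highest values, 48.3 and 43.5, were those of ITGA4+BMPR1B+ cells of pigs 5 and 6. ITGA4+BMPR1B- libraries stood at 4.27 to 6.98, and the ITGA4-BMPR1B+ libraries of pigs 5 and 6 at 7.87 and 17.5. The groups overlapped, and all 6 pairs were higher in ITGA4+ (log2 1.55, SE 0.41, limma adjusted p = 0.224). MKI67 (log2 1.10), which coats mitotic chromosomes, TPX2 (0.96), a spindle assembly factor, CCNA2 (0.97), a cyclin, and CKS2 (0.83), a cyclin-dependent kinase subunit, were also higher in 6 of 6 pairs, with limma adjusted p of 0.194, 0.143, 0.194 and 0.183. Of the G1 and S phase list, 12 of 24 rows were tested and 11 lay above 0, with a median of 0.44 and 2 higher at an unadjusted p under 0.05 (5.00% of all genes). Of these 12 rows 5 entered through the ITGA4+ libraries. Without the ITGA4+BMPR1B- library of pig 5, 8 of the 12 were higher at an unadjusted p under 0.05 and the median was 0.60. In that fit 366 of all 9071 genes were higher. Without the ITGA4+BMPR1B- library of pig 2, 2 were higher and 1 was lower (median 0.39). Without pig 2 the counts were again 2 higher and 1 lower (median 0.36). RRM1, the large subunit of ribonucleotide reductase, did not overlap between the groups, at 15.99 to 30.6 (median 18.4) in ITGA4+ and 12.8 to 14.4 (median 13.0) in ITGA4- (log2 0.56, limma adjusted p = 0.221). CDKN2C, an inhibitor of cyclin-dependent kinases and so of cycling, was higher as well, at 10.3 to 55.8 (median 32.1) against 5.92 to 27.4 (median 13.4), in 6 of 6 pairs (log2 0.93, limma adjusted p = 0.130). Replication-dependent histones as a list had no such direction, with 5 of 10 rows above 0. HIST2H3D had a log2 difference of 3.26 (SE 0.53, limma adjusted p = 0.130) in 5 of 6 pairs. Its row shares its values with ENSSSCG00000028221, so the locus is uncertain. Values were 25.3 to 213 in ITGA4+, 14.9 to 89.1 in ITGA4-BMPR1B+ and only 0.00118 to 1.65 in ITGA4-BMPR1B- libraries. The BMPR1B+ pair of pig 6 went down, from 89.1 to 71.8.

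Cartilage matrix genes leaned toward ITGA4- cells on the messenger RNA scale. Of 33 rows of the list 28 were tested, and 24 lay below 0, with a median of -0.35. At an unadjusted p under 0.05, 9 were lower (6.97% of all genes) and 1 was higher, and 9 were lower in 6 of 6 pairs (4.76% of all genes). The direction turned with the scale: as deposited the median of the list was 0.18, below the 0.32 of all rows, and 8 of 27 members rose (50.5% of all rows). Medians on the messenger RNA scale were -0.27, -0.59 and -0.29 in pigs 2, 5 and 6, and -0.42, -0.28 and -0.30 without the ITGA4+BMPR1B- library of pig 2, without that of pig 5 and without pig 2.

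ACAN, the core protein of the proteoglycan aggrecan, ranged from 1365 to 2295 (median 1950) in ITGA4+ and from 2478 to 3271 (median 2683) in ITGA4- libraries. The groups did not overlap (log2 -0.57, SE 0.13, limma adjusted p = 0.183), while as deposited the difference was 0.06 and not called. SOX9, the master transcription factor of the chondrocyte programme, ranged from 1013 to 2803 (median 1240) and from 1354 to 3912 (median 1801). It overlapped between the groups with the pig 2 libraries highest in each, and was lower in ITGA4+ in 6 of 6 pairs (log2 -0.47, adjusted p = 0.183, as deposited 0.15 and not called). COL2A1, the chain of type II collagen, was lower in 6 of 6 pairs with overlapping ranges (log2 -0.75, SE 0.24, adjusted p = 0.322). XYLT1 (-0.74), which starts glycosaminoglycan chains, COL9A2 (-0.64), a chain of type IX collagen, and WWP2 (-0.55), a ubiquitin ligase that hosts a cartilage microRNA, were lower too. COMP (-0.22, adjusted p = 0.661) and FN1 (-0.18, adjusted p = 0.657), both matrix glycoproteins, differed by little more than their standard errors of 0.19 and 0.15. Of the 4 members above 0, OGN, a small leucine-rich proteoglycan, stood at 1.14 (limma adjusted p = 0.269) and was higher in 6 of 6 pairs, and LECT1, MATN2 and CHAD stood at 0.30, 0.13 and 0.08.

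Of 21 tested rows for proteases and their inhibitors (33 in the list), 16 lay above 0, with a median of 0.20, 7 were higher and 1 lower at an unadjusted p under 0.05 (5.00% and 6.97% of all genes), and 17 of 18 rose as deposited (50.5% of all rows). The median was 0.22 without the ITGA4+BMPR1B- library of pig 2, 0.28 without that of pig 5 and 0.33 without pig 2. MMP13, the collagenase that cuts type II collagen, ranged from 19.2 to 49.95 (median 37.3) in ITGA4+ and from 5.21 to 34.9 (median 12.2) in ITGA4- libraries. The pig 2 libraries were highest among ITGA4- cells and made the groups overlap, and all 6 pairs were higher in ITGA4+ (log2 1.22, SE 0.28, limma adjusted p = 0.183). ADAMTS5, an aggrecanase, ranged from 3.93 to 9.57 (median 5.205) against 1.58 to 4.46 (median 2.38), higher in 6 of 6 pairs (log2 1.03, adjusted p = 0.183). Of the 21 rows, ADAMTS5 alone entered through the ITGA4+ libraries, and 1 row entered through the ITGA4- libraries. ADAMTS1, a protease of aggrecan and versican, was split over 2 rows, so its counts are uncertain. They gave 1.74 (adjusted p = 0.142) and 1.39 (adjusted p = 0.295), each higher in 6 of 6 pairs. CTSK, the collagen-cutting cathepsin, was higher by 0.44 (adjusted p = 0.183).

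Genes of hypertrophic cartilage and bone were mixed. Of 17 tested hypertrophic and deep zone members (22 rows in the list), 13 lay above 0 (median 0.26), with 7 higher and 2 lower at an unadjusted p under 0.05 (5.00% and 6.97% of all genes). COL10A1, IBSP, IHH and MEF2C entered through the ITGA4+ libraries. Those higher were 6, 4 and 3 without the ITGA4+BMPR1B- library of pig 2, without that of pig 5 and without pig 2. In these fits 585, 366 and 465 of all 9071 genes were higher. COL10A1, the collagen of hypertrophic chondrocytes, ranged from 1.25 to 176 (median 42.3) in ITGA4+ and from 0.704 to 22.0 (median 3.21) in ITGA4- libraries. The ITGA4+BMPR1B- library of pig 6 was low, at 1.25, and the remaining 5 ITGA4+ values were 17.5 or more (log2 2.82, SE 0.59, limma adjusted p = 0.183, 6 of 6 pairs higher). IHH (1.12), the hedgehog ligand of prehypertrophic cells, IBSP (1.52) and SPP1 (0.84), sialoproteins of mineralized matrix, were on the same side with adjusted p of 0.328, 0.265 and 0.322. TGM2, a transglutaminase of the same list, was lower (-0.71, adjusted p = 0.183). Osteoblast genes had a median of 0.58 over 7 tested (5 above 0), at 1.06, 0.36 and 0.15 in pigs 2, 5 and 6, and 3 of the 7 entered through the ITGA4+ libraries. The median was 0.36 without the ITGA4+BMPR1B- library of pig 2, 0.66 without that of pig 5 and 0.25 without pig 2. The 2 rows below 0 were both of SPARC, a matrix glycoprotein abundant in bone, at -0.64 (limma adjusted p = 0.183) and -0.46 (adjusted p = 0.377), each lower in 6 of 6 pairs, and the split over 2 rows leaves its level uncertain. RUNX2, the transcription factor of bone and hypertrophic cells, ranged from 25.9 to 229 (median 82.3) against 22.6 to 86.8 (median 62.5). The groups overlapped, with the ITGA4- low value in the BMPR1B- library of pig 6, and 6 of 6 pairs were higher in ITGA4+ (log2 0.66, SE 0.27, limma adjusted p = 0.391). The pairs differed most in pig 2, from 62.2 to 183 in BMPR1B- and from 86.8 to 229 in BMPR1B+ cells. They differed less in pig 5 (58.8 to 67.7 and 67.4 to 96.9) and in pig 6 (22.6 to 25.9 and 62.7 to 67.7).

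Superficial zone genes depended on the pig. Of 10 tested rows (15 in the list) 7 lay above 0, where 45.8% of all genes did, and TNXB and VCAM1 entered through the ITGA4+ libraries. The median was 0.43 overall but -0.07 in pig 2, 0.21 in pig 5 and 0.94 in pig 6. It was 0.54 without the ITGA4+BMPR1B- library of pig 2, 0.32 without that of pig 5 and 0.58 without pig 2. PRG4 ranged from 206 to 5002 (median 2161) in ITGA4+ and from 21.1 to 4200 (median 1446) in ITGA4- libraries. The ranges overlapped almost completely, since BMPR1B- libraries were above their BMPR1B+ partners in every pig, but each of the 6 pairs was higher in ITGA4+. The log2 difference was 1.38 (SE 0.58, limma adjusted p = 0.397), at 0.17, 2.05 and 1.93 in pigs 2, 5 and 6, with BMPR1B+ cells at 2.17 and BMPR1B- cells at 0.60. As deposited PRG4 rose by 1.90 (adjusted p = 0.0249).

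**Figure D4:**
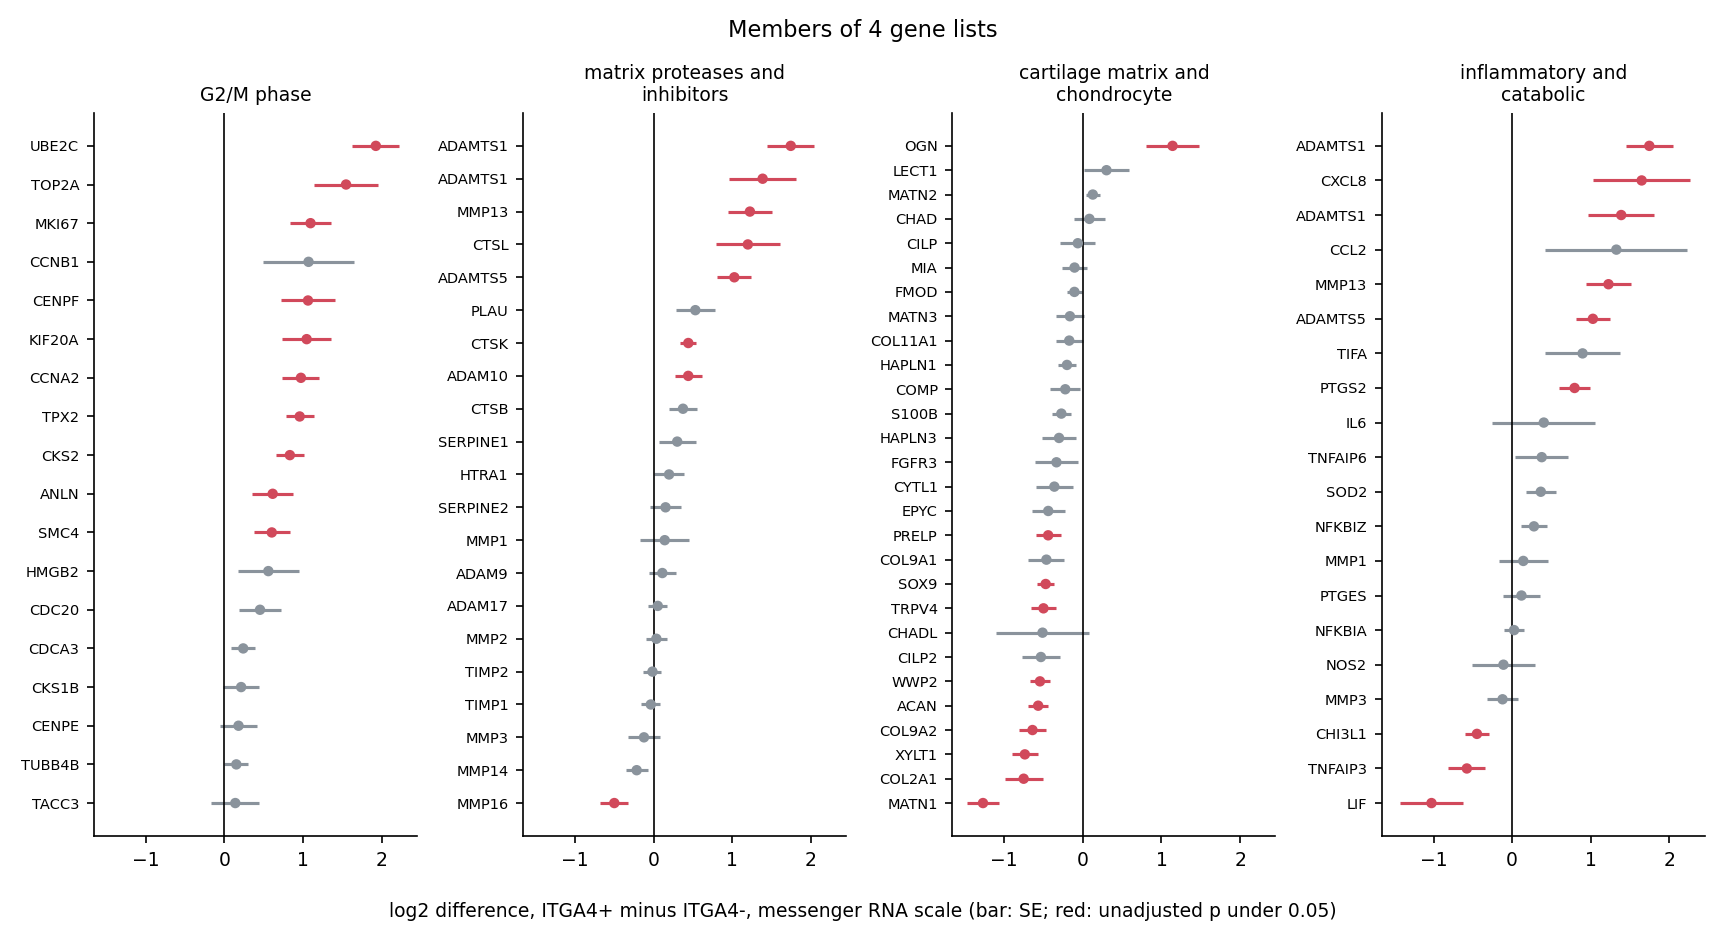
Log2 difference (ITGA4+ minus ITGA4-, messenger RNA scale) with its standard error for each tested row of the G2/M, protease, cartilage and inflammatory lists, in red where the unadjusted limma p is under 0.05. All 18 G2/M rows lie above 0, led by UBE2C at 1.93, and 24 of 28 cartilage rows lie below it, down to MATN1 at -1.27. Of the 18 G2/M rows 8, UBE2C among them, entered through the ITGA4+ libraries, so their side is not a test. Genes with 2 rows appear once for each, and the protease and inflammatory lists share ADAMTS1, ADAMTS5, MMP13, MMP1 and MMP3.

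The receptor partners of ITGA4 and its ligands had no common direction. Of 12 tested rows 5 lay above 0 and 7 below, with a median of -0.06. At an unadjusted p under 0.05, 2 were higher (5.00% of all genes) and 0 lower (6.97% of all genes). ITGB1 (log2 0.10, adjusted p = 0.730) and ITGB7 (0.17, adjusted p = 0.782), the beta chains, differed by no more than their standard errors of 0.11 and 0.22. VCAM1, a ligand that entered through the ITGA4+ libraries, ranged from 0.203 to 28.7 (median 7.15) in ITGA4+ and from 0.108 to 4.35 (median 1.10) in ITGA4- libraries. The 3 highest values, 10.7 to 28.7, were those of ITGA4+BMPR1B- cells, and the ITGA4+BMPR1B+ library of pig 5 was as low as ITGA4- cells (log2 1.72, SE 0.42, limma adjusted p = 0.194, 5 of 6 pairs). ITGA10, a collagen-binding integrin of chondrocytes, was lower in 6 of 6 pairs (-0.38, adjusted p = 0.224).

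GLI1 and STAT3, whose products the study examined by Western blot (STAT3 in its phosphorylated form), rose on the deposited scale and did not pass the test on the messenger RNA scale. Their deposited rises were close to the median shift of all rows, 0.32, and 50.5% of all rows rose on that scale. The study blotted SOX9 and RUNX2 as well, and reported each of these proteins as enriched in ITGA4+BMPR1B+ cells over the remaining populations. The comparison here is of RNA and pools ITGA4+BMPR1B+ with ITGA4+BMPR1B- cells. Transcripts of SOX9 were lower and those of RUNX2 higher in ITGA4+ cells, neither past the test on the messenger RNA scale. The RUNX2 difference was largest in pig 2. GLI1, a transcriptional target of hedgehog signalling, ranged from 106 to 185 (median 150) in ITGA4+ and from 136 to 222 (median 187) in ITGA4- libraries. The groups overlapped, 5 of 6 pairs were lower in ITGA4+ (log2 -0.28, SE 0.11, limma adjusted p = 0.385), and as deposited GLI1 rose by 0.30 (adjusted p = 0.0448). STAT3, a cytokine-activated transcription factor, stood at -0.08 (adjusted p = 0.791) with 3 of 6 pairs higher, turned to 0.02 without pig 2, and rose by 0.32 as deposited (adjusted p = 0.0263).

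Cholesterol synthesis genes leaned toward ITGA4- cells. Of 16 tested rows 15 lay below 0, with a median of -0.29 and medians of -0.20, -0.27 and -0.35 in pigs 2, 5 and 6. At an unadjusted p under 0.05, 6 were lower (6.97% of all genes), and 11, 3 and 5 without the ITGA4+BMPR1B- library of pig 2, without that of pig 5 and without pig 2. In the latter fits 747, 450 and 562 of all 9071 genes were lower. As deposited 0 of 14 members passed the threshold in either direction, where 50.5% of all rows rose, and their median was 0.14. SREBF2, the transcription factor that turns the pathway on, ranged from 27.0 to 45.5 (median 36.3) in ITGA4+ and from 46.0 to 68.6 (median 53.6) in ITGA4- libraries. The groups did not overlap (log2 -0.56, SE 0.13, limma adjusted p = 0.183). FDFT1, squalene synthase, stood at -0.30 (adjusted p = 0.367) and was lower in 6 of 6 pairs.

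Inflammatory and catabolic genes lay mostly above 0 (15 of 20 tested, where 45.8% of all genes did, median 0.37), with 6 higher and 3 lower at an unadjusted p under 0.05 (5.00% and 6.97% of all genes). Of the 20, 5 entered through the ITGA4+ libraries and 1 through the ITGA4- libraries. The median was 0.15, 0.65 and 0.40 in pigs 2, 5 and 6. It was 0.39 without the ITGA4+BMPR1B- library of pig 2, 0.16 without that of pig 5 and 0.53 without pig 2, and both of these libraries held macrophage transcripts (CD68 at 101 and 31.4), whose part was not tested. PTGS2, the inducible cyclooxygenase, ranged from 16.8 to 154 (median 52.7) in ITGA4+ and from 7.82 to 141 (median 23.1) in ITGA4- libraries, higher in 6 of 6 pairs with wide overlap (log2 0.79, limma adjusted p = 0.194). Of oxidative stress genes 12 of 15 lay above 0 (median 0.26). HMOX1, heme oxygenase, stood at 0.85 (limma adjusted p = 0.183). SEPP1, a selenium carrier, was at 110, 82.8 and 26.4 in the ITGA4+BMPR1B- libraries of pigs 2, 5 and 6, at 7.36 to 15.1 in ITGA4+BMPR1B+ and at 0 to 18.0 in ITGA4- libraries (log2 2.80, adjusted p = 0.183). In the same ITGA4+BMPR1B- libraries CD68 was at 101, 31.4 and 3.87 and C1QC at 94.9, 11.6 and 0.872, and their part in the SEPP1 values was not tested.

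**Figure D5:**
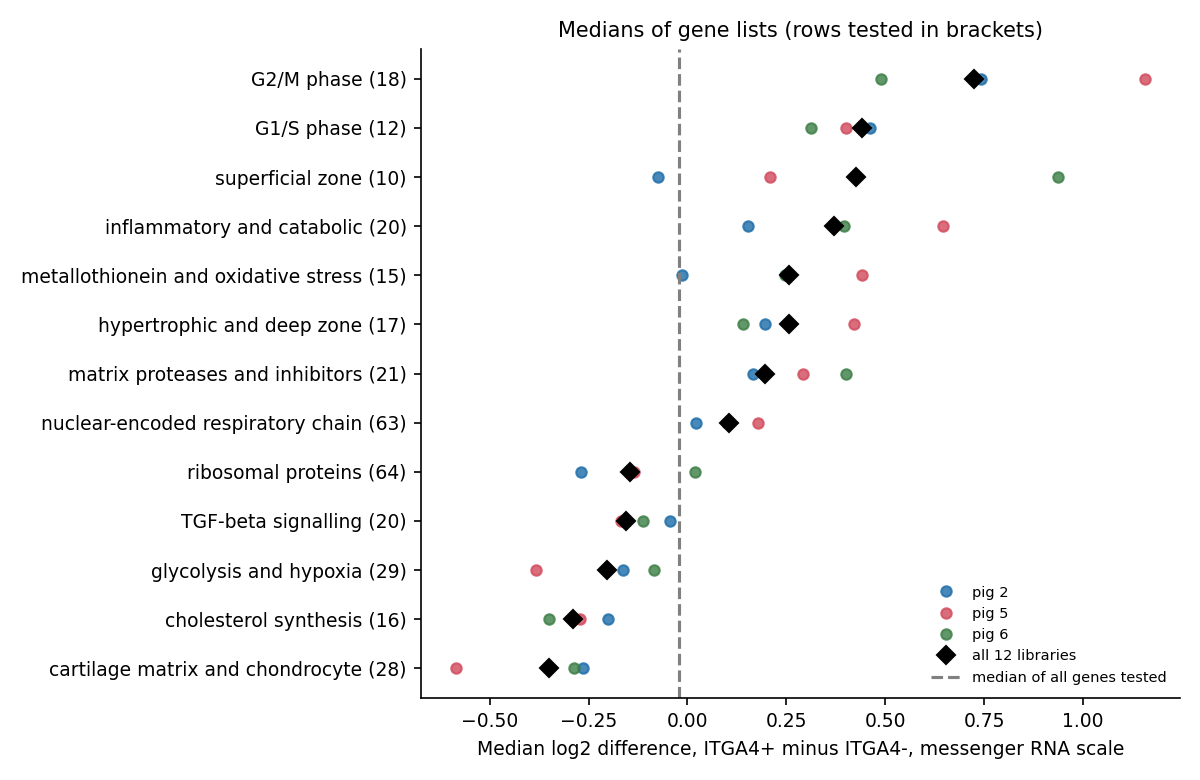
Median log2 difference (ITGA4+ minus ITGA4-, messenger RNA scale) of 13 gene lists, over all 12 libraries (black) and within each pig (coloured), with the number of tested rows in brackets and the median of all genes dashed at -0.02. The G2/M list has the highest median, 0.72, the cartilage list the lowest, -0.35, and the superficial zone list spreads from -0.07 to 0.94 between pigs. In the G2/M list 8 of 18 rows entered through the ITGA4+ libraries.

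The smallest p on the messenger RNA scale were not confined to these lists. On the ITGA4+ side, TAF13, a subunit of the general transcription factor TFIID, ranged from 121 to 177 (median 158) against 82.9 to 105 (median 96.9) in ITGA4- libraries, without overlap (log2 0.69, SE 0.11, limma adjusted p = 0.130). MARCKS, an actin-binding substrate of protein kinase C, stood at 1.86 (45.2 to 462, median 121, against 9.43 to 213, median 39.0), TMSB4X, which binds free actin, at 0.68, DLX3, a homeobox factor of bone and skin, at 0.97, and ZFAND5 at 0.63. Each of these was higher in 6 of 6 pairs, with limma adjusted p of 0.143 for MARCKS and 0.142 for the other 3. DLX3 entered through the ITGA4+ libraries. On the ITGA4- side, HRAS ranged from 8.62 to 23.8 (median 10.8) in ITGA4+ and from 22.8 to 45.2 (median 37.7) in ITGA4- libraries, nearly without overlap (log2 -1.30, SE 0.24, adjusted p = 0.143). SLC1A4, a neutral amino acid transporter, had 1 row at 6.26 to 7.93 (median 7.02) against 10.4 to 12.6 (median 11.01), without overlap (-0.60, adjusted p = 0.130), and a further row at -0.36. ZBTB7B, a zinc finger repressor, did not overlap either (-0.81, adjusted p = 0.142). CNR1, the brain-type cannabinoid receptor, was at 0 to 4.82 (median 3.15) against 2.17 to 17.5 (median 12.4), lower in 6 of 6 pairs (-1.55, adjusted p = 0.142). No ITGA4+ value of CNR1 exceeded 5, so it entered through the ITGA4- libraries. FTSJ3 (-0.71), of ribosomal RNA processing, EZR (-0.55), which ties actin to the membrane, EMP3 (-0.63), SUSD5 (-0.84) and PLOD3 (-0.42), a collagen lysyl hydroxylase, were likewise lower in 6 of 6 pairs, with limma adjusted p of 0.130 to 0.143.

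The difference between ITGA4+ and ITGA4- cells was not shown to depend on BMPR1B status for any gene. On the messenger RNA scale the limma interaction called 0 of 9071 genes (smallest adjusted p of 0.99990), 327 had an unadjusted p under 0.05 (3.60%), and no gene was called within BMPR1B+ or within BMPR1B- cells. ELP5, of the Elongator complex, had the smallest interaction p (4.10 on the log2 scale, unadjusted p = 0.00105), followed by MRPS24, a mitochondrial ribosomal protein (-0.78, unadjusted p = 0.00141). On the deposited scale 1566 genes (22.8%) were called within BMPR1B- cells and 0 within BMPR1B+ cells, and the interaction again called 0 of 6873, with 232 at an unadjusted p under 0.05 (3.38%).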

How the data were processed

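RNA of sorted cells had been extracted with a Qiagen Micro kit, made into NuGen Ovation SoLo libraries and sequenced from both fragment ends on an Illumina HiSeq. Reads were mapped by the authors to the pig reference of Ensembl, using STAR, and transcripts estimated by expectation maximisation in Partek. The authors deposited 1 table of signal values, with 0.0001 as its lowest value (read here as 0). The sources used here do not give the normalization or the tool versions. The values are not counts and carry no depth, and the read totals listed by the study were not used, so no counting interval was given and no count model was used.

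Symbols came from the table (13674 rows) or a reference list (2384), and 9264 rows had none. Size factors on the messenger RNA scale used 11967 rows above 0 in all 12 libraries. R 4.3.3 and limma 3.58.1, with the prior variance following the mean, tested log2(value + 1) with the 4 populations and the pig as terms (6 residual degrees of freedom) and Benjamini-Hochberg adjustment. With a pseudocount of 1, fold changes of low genes are understated. The fits were tested on simulated data. The 4 populations came from the same animals: after removal of population means, libraries of 1 pig correlated at 0.141 to 0.443 (median 0.344), libraries of different pigs had a median of -0.230, and the closest library was from the same pig for 12 of 12. Shares were compared by two-sided exact permutation within pairs.

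The members, gene lists and marker genes were chosen with earlier results of these data known. Named genes were ITGA4, BMPR1B and a fixed set of cartilage, progenitor and marker genes, the 12 smallest p in each direction with a symbol and a mean of at least 10, up to 5 list members and 5 interaction genes by p. Not all genes of the rule are printed. Some further list members were named after their values were seen. Alternatives changed the pseudocount, filter, scaling, block and limma trend, or left out 1 library or pig. The fits of gene lists without the ITGA4+BMPR1B- library of pig 2, without that of pig 5 and without pig 2 were chosen after seeing the data. The 3 CD146+ libraries were left out because they belong to another tissue. Some named items are not reported here.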

Additional observations from a re-analysis of the deposited data

Results flagged for a closer look

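Of 88 groups of 6 libraries examined for a library far from the other 5, 2 had one, where chance gives about 1 in 20. RUNX2 was low in the ITGA4-BMPR1B- library of pig 6, at 22.6 on the messenger RNA scale, with the other ITGA4- libraries at 58.8 to 86.8. The ITGA4+BMPR1B- library of the same pig was similarly low, at 25.9. CNR1 was at 0 in the ITGA4+BMPR1B+ library of pig 6, with the other ITGA4+ libraries at 2.04 to 4.82.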

How the results depend on the processing

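On the deposited scale the count of 3490 calls moved with the treatment of the pig and with the libraries used. It was 7 with no replicate block and 0 on animal averages (2700 at an unadjusted p under 0.05), and lay between 0 and 3346 when 1 pig or library was left out, with 1340 and 2262 without the ITGA4-BMPR1B- libraries of pigs 5 and 6 and 2078 without the ITGA4-BMPR1B+ library of pig 5. A pseudocount of 5 gave 1910, no filter 1899 and a filter 4 times as high 1704. On the messenger RNA scale the count of 0 became 2 with a pseudocount of 5, 1 without a filter, 2 without a trend, and 0 to 2 when 1 pig or library was left out. MATN1 was the named gene among these calls, and the others were ENSSSCG00000020405, ENSSSCG00000024449, ENSSSCG00000022653, ENSSSCG00000029276 and ENSSSCG00000025456. Interaction calls went from 0 to 1 with a pseudocount of 5, without a filter or without a trend, and to 0 to 2 with a pig or library left out. Scaling to the messenger RNA total put the median of all genes at 0.05, trimmed means at -0.02. Without 1 pig, the structural share differed by -22.3 to -13.0 percentage points, the mitochondrial by 8.64 to 18.6, the messenger by 2.58 to 4.38 and log2 structural per messenger RNA by -1.13 to -0.70, where 4 pairs allow no exact p below 0.125. STAT3 spanned -0.20 to 0.023 and ITGB1 -0.011 to 0.26 with a pig or library left out. Of the values of single genes and shares under the settings that kept all libraries, 425 kept their direction and side of the threshold, 20 lost the call and 1 gained it. The causes were not tested.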

Other observations

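Several gene groups showed small differences or none in 1 direction on the messenger RNA scale, and none of their members passed the limma threshold. Ribosomal protein genes lay below 0 in 50 of 64 rows, with a median of -0.15, and the median was -0.27, -0.14 and 0.02 in pigs 2, 5 and 6. Nuclear-encoded subunits of the respiratory chain lay above 0 in 40 of 63 rows, with a median of 0.11, where the mitochondrially encoded rows had a median of 0.89. Without pig 2 the medians were 0.12 for the nuclear-encoded and 0.07 for the mitochondrially encoded rows. Glycolysis and hypoxia genes lay below 0 in 24 of 29 rows (median -0.20), with 8 lower (6.97% of all genes) and 0 higher (5.00%) at an unadjusted p under 0.05. The lower rows were 7 without the ITGA4+BMPR1B- library of pig 2, 4 without that of pig 5 and 4 without pig 2. In these fits 747, 450 and 562 of all 9071 genes were lower. Of this list, the glycolytic enzyme ENO1 stood at -0.43 (limma adjusted p = 0.205), at 274.7 to 589 in ITGA4+ and 357.5 to 978 in ITGA4- libraries. CA9, a carbonic anhydrase induced by low oxygen, stood at -0.77 and PKM, pyruvate kinase, at -0.30. The ENO1 ranges overlapped, and 6 of 6 pairs were lower in ITGA4+.

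Immediate early genes, which dissociation of tissue can switch on, lay above 0 in 12 and below in 18 of 30 rows (median -0.11), heat shock genes above in 8 of 19 (median -0.01). TGF-beta signalling genes had a median of -0.15 (7 of 20 above 0), WNT of -0.02 (5 of 15), hedgehog of -0.02 (4 of 9) and Notch of -0.02 (3 of 8). Of 11 skeletal progenitor genes 5 lay above 0 (median -0.04), and of 14 synovial and fibroblast genes 7 (median 0.01). LCN2, a neutrophil granule protein that chondrocytes also make, was at 178 to 1724 in ITGA4+ and 199 to 1020 in ITGA4- libraries, while S100A12 and CAMP of neutrophils were at 79.3 and 23.1 in the ITGA4+BMPR1B- library of pig 2 and at 0 to 1.51 in the other 11.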
